A study of Mus musculus with 4 samples.

Results

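Fos, Ier2, Btg2, Gadd45a and Ddit4, with Jun, Egr1 and Ddit3, are genes of the immediate early and stress responses, and they were followed through the differentiation of cultured mouse muscle cells with and without forced expression of Twist2. They were chosen by name. The rule named 10 genes, of which 8 were among the 3760 genes of the authors' deposited table. Junb and Atf3 completed the rule and were not analysed here. The cells were cultured myoblasts from skeletal muscle of adult C57BL/6 mice, called Twist2-positive in the labels. By the labels' protocols, every group was exposed to a retrovirus for 24 h, with 24 h more in growth medium afterwards. There were 4 groups of 1 library each. In the Twist2 differentiation group the virus carried Twist2-IRES-GFP and the cells are labelled as 5 days after differentiation, in DMEM high glucose with 2% horse serum. In the Twist2 growth group the same virus was used and the cells were harvested before differentiation, from Ham's F10 medium with 20% fetal bovine serum on Matrigel. The GFP differentiation and GFP growth groups received a virus with GFP alone and were handled in the same ways. The promoter that drives the viral insert, the number of mice and any selection of infected cells were not given in the sources used here.

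Immediate early genes are transcribed within minutes of a stimulus such as serum, without the need for new protein synthesis, and their RNAs usually decay quickly. Fos and Jun proteins pair to form the transcription factor AP-1, and Egr1 is a zinc finger transcription factor of the same rapid response. Stress response genes such as Gadd45a, Ddit4 and Ddit3 are induced by DNA damage, by lack of oxygen or amino acids, or by unfolded protein. In myoblasts, AP-1 is known as a factor of proliferating cells, and Twist2 is a basic helix-loop-helix factor that binds short DNA elements called E-boxes and is known to oppose MyoD.

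Levels are given as CPM, the count of a gene's reads scaled to the total of the library. The 4 libraries held between 9235281 and 12362290 reads, and the listed genes took between 36.9% and 65.1% of them. The viral gene fitted the labels, with 674 CPM of Twist2 in the Twist2 differentiation library, 1438 CPM in the Twist2 growth library, no read in the GFP differentiation library (3 reads would be 0.325 CPM) and 1 read in the GFP growth library. The GFP cells, although called Twist2-positive, thus had almost no Twist2 reads. The listed genes were selected. Each of them reached 10 CPM in 2 or more libraries and was 2-fold or more apart from the GFP growth library in 1 or more of the other libraries. Of the 8 genes, 6 met that condition through Twist2 differentiation over GFP growth, and 5 met it in that comparison only, as did 788 of the 3760 listed genes. Their differences are therefore in part a condition of being listed, and counts of them are given as a description. With 1 library per group, nothing here was repeated, and library and condition cannot be told apart. In bulk RNA, fewer cells of a type and less RNA per cell cannot be told apart either.

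The 250 bases before the RefSeq start of transcription (GRCm38.p6) were read for 6 of the 8 genes. They are printed for 4 of them because their differentiation ratios contrast, with Fos and Btg2 higher in Twist2 cells, Jun lower in both kinds of cells, and Ddit4 higher in Twist2 cells and lower in GFP cells. Fos lies on the plus strand at chr12:85473640-85473889, and Btg2, Ddit4 and Jun lie on the minus strand at chr1:134079156-134079405, chr10:59951771-59952020 and chr4:95052223-95052472. Each is written 5′ to 3′ on the strand of its gene and ends next to the start. Capitals mark matches, on either strand, to the short cAMP response element TGACGT, the bZIP pattern TGANNTCA, the AP-1 pattern TGANTCA, the E-box CANNTG, the TATA box TATAAA, the box CCAAT, the MEF2 element or the CArG box.
Fos: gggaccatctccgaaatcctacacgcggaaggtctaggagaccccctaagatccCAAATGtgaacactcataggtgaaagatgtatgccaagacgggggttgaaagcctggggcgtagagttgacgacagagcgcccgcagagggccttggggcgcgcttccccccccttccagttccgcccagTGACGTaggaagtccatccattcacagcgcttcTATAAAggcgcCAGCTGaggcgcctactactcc
Btg2: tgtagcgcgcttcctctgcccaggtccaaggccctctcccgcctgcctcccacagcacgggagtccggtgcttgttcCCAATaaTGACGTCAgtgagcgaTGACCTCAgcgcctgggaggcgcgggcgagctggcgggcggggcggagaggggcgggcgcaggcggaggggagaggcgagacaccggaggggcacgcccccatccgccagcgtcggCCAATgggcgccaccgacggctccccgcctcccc
Ddit4: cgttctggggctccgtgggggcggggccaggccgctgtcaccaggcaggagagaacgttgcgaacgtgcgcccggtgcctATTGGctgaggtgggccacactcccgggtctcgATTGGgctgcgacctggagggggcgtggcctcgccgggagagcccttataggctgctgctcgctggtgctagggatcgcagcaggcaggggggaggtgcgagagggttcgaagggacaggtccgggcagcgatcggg
Jun: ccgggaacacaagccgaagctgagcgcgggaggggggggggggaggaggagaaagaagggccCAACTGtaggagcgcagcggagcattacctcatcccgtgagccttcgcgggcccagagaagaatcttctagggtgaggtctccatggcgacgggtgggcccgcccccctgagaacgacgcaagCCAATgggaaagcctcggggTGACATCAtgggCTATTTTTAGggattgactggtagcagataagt

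The Btg2 window holds TGACGTCA, the full cAMP response element, at bases -166 to -159 from the start, a match found in 1.55% of 32851 promoters searched over the same length. This match includes TGACGT on both strands and is also 1 of the 2 matches to TGANNTCA there. The other is TGACCTCA at -150 to -143. The Fos window holds the shorter TGACGT at -66 to -61 (6.47% of promoters), TATAAA at -33 to -28 (12.4%) and 2 E-boxes, CANNTG (66.2%), of which the one at -22 to -17 reads CAGCTG (13.0%). The Jun window holds TGACATCA, a match to TGANNTCA (11.9%), at -45 to -38, a MEF2 element (2.92%) at -33 to -24, an E-box at -188 to -183 and CCAAT at -65 to -61. The Ddit4 window holds CCAAT (33.8%) on the minus strand at -170 to -166 and at -137 to -133, and in this window no other searched motif shown in capitals. Of the windows not printed, that of Ddit3 holds TGACTCA, a match to the AP-1 letters TGANTCA (6.75%), at -242 to -236. That of Gadd45a holds the octamer ATGCAAAT, found in 526 of the promoters searched, on both strands, and an E-box at -67 to -62 that overlaps one of these. The box CCAAT is in 5 of the 6 windows, and so is the GC box GGGCGG, left in lower case, which is in 32.7% of promoters and in 59.6% of those of listed genes. The CArG box, the element of serum response factor, is in 1.47% of promoters and in 0 of these 6 windows. TGATGNAA, searched for ATF4, is in 3.45% and in 0 of the 6. Bases farther upstream were not searched, nor were the promoters of Egr1 and Ier2, so elements there would be missed. GENCODE places the starts of Ddit4, Gadd45a and Ddit3 inside these windows. A match of letters is a description of these bases only.

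Summed over the 8 genes, the Twist2 differentiation library held the most CPM. It held 1167 CPM (14426 reads), against 479 CPM (5298 reads) in the Twist2 growth library, 432 CPM (3993 reads) in the GFP differentiation library and 531 CPM (5172 reads) in the GFP growth library. The Twist2 differentiation library had the highest CPM of 6 genes, namely Fos, Ier2, Btg2, Ddit4, Egr1 and Ddit3. The GFP growth library was highest for Jun and the GFP differentiation library for Gadd45a. Those 6 genes are the ones that met the selection of the table by being higher in Twist2 differentiation than in GFP growth. Their sum and their count are therefore in part a condition of being listed. Levels of different genes can be compared only per length, here CPM per kilobase of the longest annotated transcript. On that scale Ddit4 was the highest of the 8 in the Twist2 differentiation library (132 CPM per kb), Jun in the Twist2 growth library (61.0), Gadd45a in the GFP differentiation library (49.1) and Jun in the GFP growth library (61.5).

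**Figure D1:**
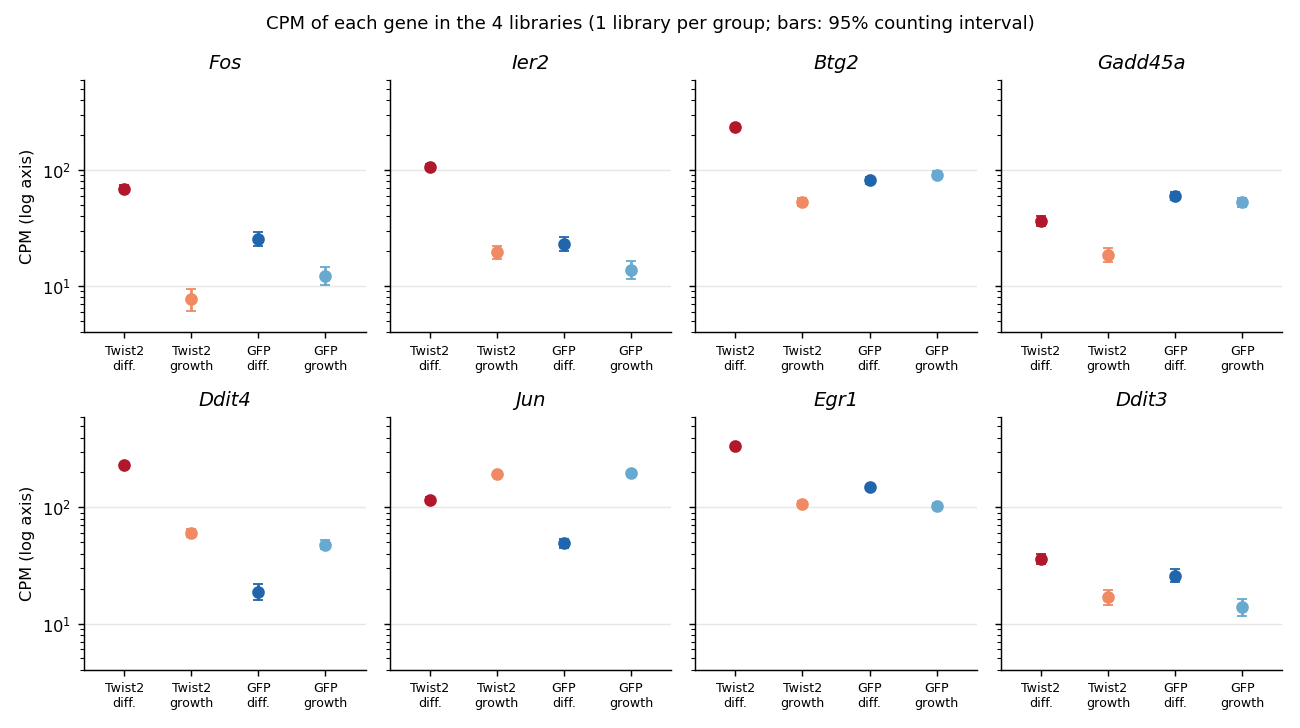
CPM of each of the 8 genes (vertical log axis) in the Twist2 differentiation, Twist2 growth, GFP differentiation and GFP growth libraries, with bars for the 95% Poisson counting interval of the single library. Fos, Ier2, Btg2, Ddit4, Egr1 and Ddit3 are highest in the Twist2 differentiation library, Jun is at 194 and 196 CPM in the Twist2 and GFP growth libraries, and Gadd45a is lowest in the Twist2 growth library.

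In what follows a log2 ratio is that of CPM + 1, and its 95% interval is that of the ratio of reads with no pseudocount. The pseudocount draws ratios of low genes towards 0. Intervals cover counting error only, because each group is 1 library. They may be too narrow even for that, because the labels name no molecular identifiers and several reads may come from copies of 1 molecule. A gene is counted as higher or lower where the log2 ratio is at least 1 or at most -1 and the higher library has at least 10 CPM.

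Fos encodes the AP-1 subunit c-Fos (chromosome 12, 85473890 to 85477273, plus strand, GRCm38). It had 69.0 CPM in the Twist2 differentiation library (853 reads), 7.68 CPM in the Twist2 growth library (85 reads), 25.6 CPM in the GFP differentiation library (236 reads) and 12.3 CPM in the GFP growth library (120 reads). Both differentiation libraries thus lay above both growth libraries, and Fos had the largest differentiation ratio of the 8 genes in each kind of cell. The log2 ratio of differentiation was 3.01 in Twist2 cells (interval 2.84 to 3.51), a ratio of reads of 8.98, and 0.996 in GFP cells (0.73 to 1.38), just under the 2-fold line. Twist2 over GFP was -0.62 in growth medium (-1.10 to -0.27) and 1.40 in differentiation medium (1.22 to 1.65), so the sign differed between the media.

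Jun encodes c-Jun, the partner of c-Fos (chromosome 4, 95049034 to 95052222, minus strand). Its CPM was 116 in the Twist2 differentiation library (1435 reads), 194 in the Twist2 growth library (2152 reads), 48.9 in the GFP differentiation library (452 reads) and 196 in the GFP growth library (1912 reads). Unlike Fos, Jun was lower after differentiation in both kinds of cells, by a log2 ratio of -0.74 in Twist2 cells (interval -0.84 to -0.65) and -1.98 in GFP cells (-2.15 to -1.85). The growth libraries differed by less than their counting error, with a Twist2 over GFP ratio of -0.01 (-0.10 to 0.08). In differentiation medium that ratio was 1.23 (1.09 to 1.40).

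Egr1 (chromosome 18, 34859823 to 34864984, plus strand) was higher in differentiation medium in both kinds of cells. The values were 336 CPM in the Twist2 differentiation library (4152 reads), 108 CPM in the Twist2 growth library (1190 reads), 149 CPM in the GFP differentiation library (1372 reads) and 103 CPM in the GFP growth library (1002 reads). The growth libraries were again within counting error of each other (log2 ratio 0.06, interval -0.06 to 0.19). Differentiation gave a log2 ratio of 1.63 in Twist2 cells (1.55 to 1.74) and 0.53 in GFP cells (0.41 to 0.65). Twist2 over GFP in differentiation medium was 1.17 (1.09 to 1.27).

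Ier2 encodes a small nuclear protein of the immediate early response (chromosome 8, 84661331 to 84662852, minus strand). It stood at 106 CPM in the Twist2 differentiation library (1310 reads), 19.5 CPM in the Twist2 growth library (216 reads), 23.3 CPM in the GFP differentiation library (215 reads) and 13.9 CPM in the GFP growth library (135 reads). It was thus high in 1 library and between 13.9 and 23.3 CPM in the other 3. Its log2 ratio of differentiation was 2.38 in Twist2 cells (interval 2.23 to 2.66) and 0.71 in GFP cells (0.43 to 1.07). Twist2 over GFP was 0.47 in growth medium (0.18 to 0.82) and 2.14 in differentiation medium (1.98 to 2.40), a ratio of reads of 4.55.

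Btg2 encodes an antiproliferative protein that binds the CCR4-NOT complex, which shortens the tails of mRNAs, and is a target of p53 (chromosome 1, 134075170 to 134079120, minus strand). It had 236 CPM in the Twist2 differentiation library (2912 reads), 53.5 CPM in the Twist2 growth library (592 reads), 81.4 CPM in the GFP differentiation library (752 reads) and 91.0 CPM in the GFP growth library (887 reads). The GFP libraries were close to each other, with a log2 ratio of -0.16 (interval -0.30 to -0.02), and the Twist2 growth library lay below them and the Twist2 differentiation library above them. The sign of that small ratio turned with the other scalings and centrings. Differentiation in Twist2 cells gave 2.12 (2.01 to 2.27). Twist2 over GFP was -0.76 in growth medium (-0.92 to -0.62) and 1.52 in differentiation medium (1.42 to 1.65).

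Gadd45a encodes a stress sensor that binds PCNA, CDK1 and p21 (chromosome 6, 67035096 to 67037457, minus strand). Its CPM was 36.3 in the Twist2 differentiation library (449 reads), 18.7 in the Twist2 growth library (207 reads), 60.1 in the GFP differentiation library (555 reads) and 52.8 in the GFP growth library (514 reads). It was the 1 gene of the 8 that was lower in the Twist2 library in both media. Twist2 over GFP was -1.45 in growth medium (interval -1.74 to -1.26) and -0.71 in differentiation medium (-0.91 to -0.54). The ratio of differentiation was 0.92 in Twist2 cells (0.72 to 1.20) and 0.18 in GFP cells (0.01 to 0.36).

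Ddit4, also called Redd1, encodes an inhibitor of mTORC1 that is induced by hypoxia, glucocorticoids and other stresses (chromosome 10, 59949669 to 59951834, minus strand). It had 232 CPM in the Twist2 differentiation library (2868 reads), 60.4 CPM in the Twist2 growth library (669 reads), 18.7 CPM in the GFP differentiation library (173 reads) and 47.9 CPM in the GFP growth library (467 reads). The differentiation libraries were thus the highest and the lowest of the 4. The log2 ratio of differentiation was 1.92 in Twist2 cells (interval 1.82 to 2.06) and -1.31 in GFP cells (-1.62 to -1.10). Twist2 over GFP was 0.33 in growth medium (0.16 to 0.51) and 3.56 in differentiation medium (3.41 to 3.86), a ratio of reads of 12.4 and the 80th highest of the 3760 listed genes.

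Ddit3 encodes CHOP, a transcription factor downstream of ATF4 in the integrated stress response (chromosome 10, 127290774 to 127296288, plus strand). GENCODE holds 2 overlapping genes of that name, so how its reads were assigned is uncertain. The CPM was 36.2 in the Twist2 differentiation library (447 reads), 16.9 in the Twist2 growth library (187 reads), 25.8 in the GFP differentiation library (238 reads) and 13.9 in the GFP growth library (135 reads). Both differentiation libraries were above both growth libraries, by a log2 ratio of 1.05 in Twist2 cells (interval 0.85 to 1.35) and 0.85 in GFP cells (0.58 to 1.21). Twist2 over GFP was 0.27 in growth medium (-0.04 to 0.62) and 0.47 in differentiation medium (0.26 to 0.72).

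**Figure D2:**
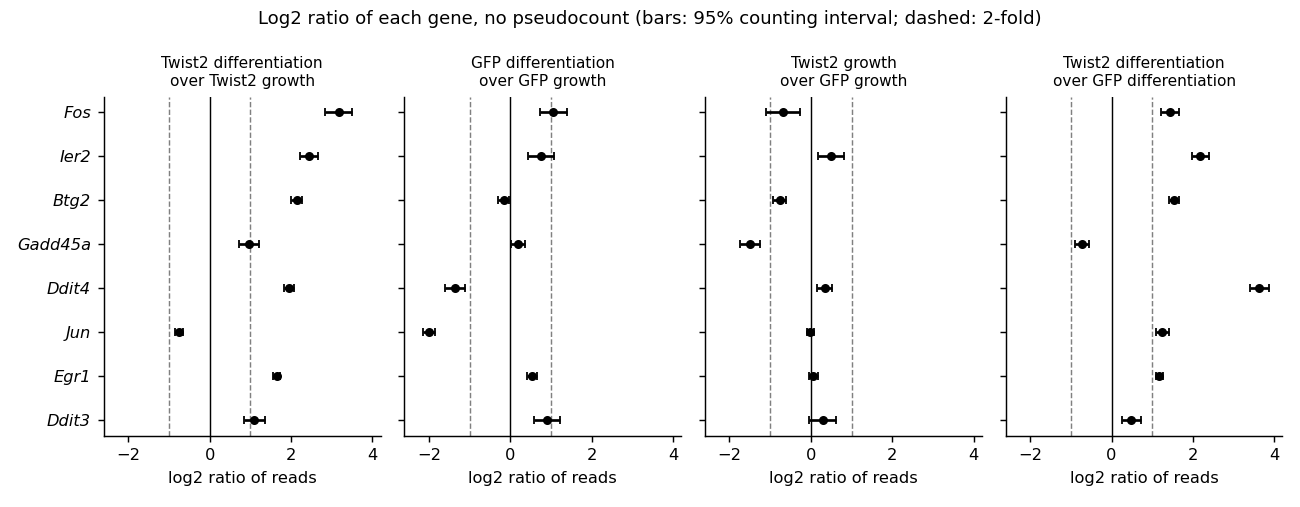
Log2 ratio of reads with no pseudocount (horizontal axis) for each of the 8 genes in 4 comparisons, with bars for the 95% counting interval and dashed lines at 2-fold. Most genes lie to the right in the Twist2 differentiation comparison and in the comparison of the viruses in differentiation medium, while in growth medium Gadd45a alone passes 2-fold.

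Set against all listed genes, the counts of the 8 were as follows. Differentiation of the Twist2 cells had 6 of the 8 genes at least 2-fold higher and 0 lower, with Gadd45a and Jun between, where 26.5% of 3715 listed genes were higher and 24.5% lower. The median log2 ratio was 1.78 for the 8 genes and -0.22 for the listed genes. Differentiation of the GFP cells had 0 of the 8 higher and 2 lower, Ddit4 and Jun, where 32.6% of 3694 listed genes were higher and 40.9% lower, and the medians were 0.36 and -0.38. Each of the 8 genes had the larger log2 ratio with Twist2, except that Ddit3 had the smaller one with size factors, with centring on length and when scaled to the reads outside the table. The last of these moved the median of listed genes by 0.25 in the Twist2 cells and 0.78 in the GFP cells. It gave 7 higher and 0 lower with Twist2, where 33.4% of listed genes were higher and 16.6% lower. With GFP it gave 4 higher and 1 lower, Jun, where 40.9% of listed genes were higher and 17.7% lower. The count of 0 higher genes in the GFP cells thus depends on the scaling.

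In growth medium, Twist2 over GFP had 0 of the 8 genes higher and 1 lower, Gadd45a, where 5.21% of 3514 listed genes were higher and 10.6% lower. The median was 0.03 for the 8 genes and -0.09 for the listed genes. In differentiation medium, Twist2 over GFP had 6 of the 8 higher, namely Fos, Ier2, Btg2, Ddit4, Jun and Egr1, and 0 lower, where 25.4% of 3437 listed genes were higher and 25.2% lower. The medians were 1.31 and -0.19. Here too the selection of the table means that the listed genes are not a like baseline. With scaling by the reads of genes not in the table, which moved the median of listed genes by -0.57, 2 of the 8 genes were higher (Ier2 at 1.56 and Ddit4 at 2.99) and 1 was lower (Gadd45a at -1.30), against 14.3% and 44.5% of listed genes. Under that scaling Fos, Btg2, Jun and Egr1 kept positive ratios between 0.58 and 0.93, and Ddit3 had a ratio of -0.11.

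The 2 differentiation ratios were then set against each other, as the log2 ratio of the Twist2 cells minus the log2 ratio of the GFP cells. This difference was at least 1 for 6 of the 8 genes and at most -1 for 0 of them, where 25.5% of 3760 listed genes were at least 1 and 12.6% at most -1. The medians were 1.46 and 0.19. Because of the selection of the table, the listed genes are again not a like baseline. Ddit4 had the largest difference, 3.23 (counting interval 3.02 to 3.58), at rank 71 of the listed genes, followed by Btg2 at 2.28 (2.11 to 2.49), Fos at 2.02 (1.66 to 2.57) and Ier2 at 1.67 (1.32 to 2.07). Jun, at 1.24 (1.08 to 1.44), and Egr1, at 1.11 (0.96 to 1.26), came close to the line, while Gadd45a, at 0.74 (0.48 to 1.06), and Ddit3, at 0.20 (-0.19 to 0.59), were under it. The interval of Ddit3 includes 0, so its 2 differentiation ratios did not differ beyond counting error. Scaled to the reads outside the table, 4 of the 8 genes had a difference of at least 1, with 15.2% of listed genes at least 1 and 28.5% at most -1. Over 9 alternatives of processing, Egr1 kept its count as higher in 4 and Jun in 6, with lowest differences of 0.57 and 0.71. Ddit4, Btg2, Fos and Ier2 kept theirs in all 9.

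**Figure D3:**
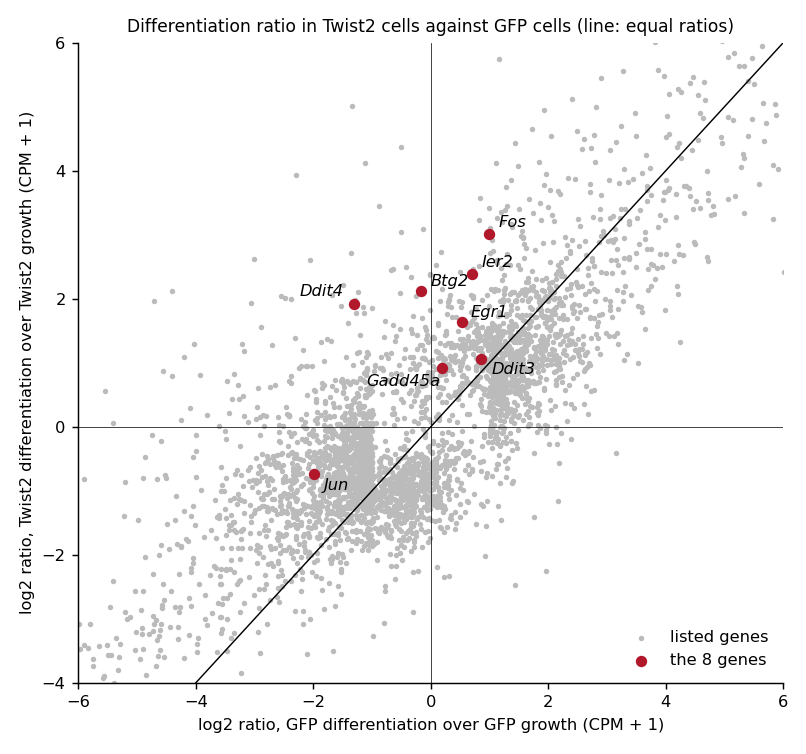
Log2 ratio of differentiation in Twist2 cells (vertical axis) against that in GFP cells (horizontal axis), both of CPM + 1, for the listed genes in grey and the 8 genes in red. On this scale all 8 lie above the line of equal ratios, Ddit4 is the farthest from it, and 79 listed genes fall outside the axes; the empty edges at 1 and -1 on the horizontal axis come from the selection of the table.

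Muscle markers moved with the same comparison. The summed level of 4 differentiated muscle markers (Myog, Myh3, Acta1 and Ckm) was 5385 CPM in the Twist2 differentiation library, 18.4 CPM in the Twist2 growth library, 41490 CPM in the GFP differentiation library and 167 CPM in the GFP growth library, with 0 of the 4 at 0 reads in any library. Of 5 myoblast markers 4 were listed (Myod1, Des, Cdh15 and Pax7), and they summed to 4838, 1577, 8123 and 3361 CPM in the same order of libraries. Des is the largest part of that sum in the differentiation libraries (2935, 726, 6503 and 1501 CPM), and the markers differ in direction. Pax7 had 34.6, 60.5, 4.01 and 78.7 CPM, lower after differentiation in both kinds of cells, and Myod1 had 1068, 547, 810 and 1184 CPM, lower after differentiation with GFP. The fibro-adipogenic and fibroblast markers Ly6a and Dcn, 2 of 5 names, summed to 67.9, 43.5, 1.19 and 12.9 CPM, with Ly6a at 0 reads in the GFP differentiation library. These also differ in direction, since in the Twist2 differentiation library Ly6a had 3.32 CPM, against 32.9 CPM in the Twist2 growth library, and Dcn had 64.6 CPM, against 10.6 CPM. The pericyte and smooth muscle marker Rgs5, 1 of 4 names, had 4.69, 85.1, 0.108 and 51.7 CPM, and none of the 4 endothelial, 5 immune and 3 Schwann cell names was listed. The part of these markers in the differences of the 8 genes was not tested.

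Transcript length also moved with the ratios in the comparisons that use a Twist2 library. Listed genes were placed in 5 groups by the length of their longest GENCODE transcript, and the median log2 ratio of Twist2 over GFP in differentiation medium was 0.38 in the shortest group and -0.78 in the longest. For differentiation of the Twist2 cells it was 0.49 and -0.51, and for Twist2 over GFP in growth medium 0.07 and -0.37. For differentiation of the GFP cells the medians were not ordered by length, with -0.10, -0.61, -0.68, -0.42 and -0.28 in the groups taken short to long. Of the 8 genes, 5 are in the shortest group, from 303 to 2370 bases, namely Fos (2108), Ier2 (1522), Gadd45a (1223), Ddit4 (1755) and Ddit3 (969). Btg2 (2743) and Jun (3189) are in the next group and Egr1 (4484) is in the middle one. Ratios were then taken relative to the median of the length group. In Twist2 over GFP in differentiation medium, Jun then had 0.94 and Gadd45a -1.09. There 5 of the 8 genes remained at 1 or above, where 24.7% of listed genes were higher. Differentiation of the Twist2 cells likewise had 5 of the 8 at 1 or above, Ddit3 having 0.56, where 29.0% of listed genes were higher. This centring was chosen after the values were seen.

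**Figure D4:**
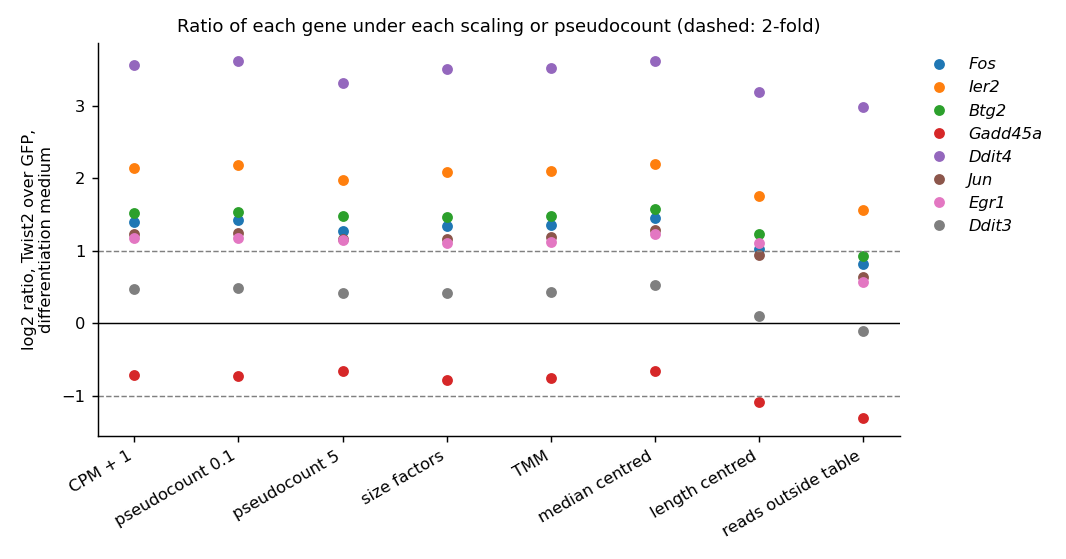
Log2 ratio of Twist2 over GFP in differentiation medium (vertical axis) for each of the 8 genes under 8 ways of computing it (horizontal axis), with dashed lines at 2-fold. Ddit4 and Ier2 lie above 2-fold throughout, and scaling to the reads outside the table places Fos, Btg2, Jun and Egr1 under it and Gadd45a below -1.

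Related genes were then taken from 12 lists of the same pathways. They held 282 distinct names, of which 104 were listed and not among the 8. Of these 104, 29 were higher and 20 lower in Twist2 over GFP in differentiation medium, with a median of -0.03, so the wider pathways stood near the listed genes, of which 25.4% were higher and 25.2% lower. In differentiation of the Twist2 cells 25 were higher and 25 lower (26.5% and 24.5% of listed genes). In the GFP cells the counts were 42 and 48 (32.6% and 40.9% of listed genes).

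Of 13 AP-1 subunit names 3 others were listed. Fosl1, which encodes Fra-1, had 10.6 CPM in the Twist2 differentiation library, 67.9 CPM in the Twist2 growth library, 1.30 CPM in the GFP differentiation library and 48.3 CPM in the GFP growth library. It was thus lower after differentiation in both kinds of cells, as Jun was, and higher with Twist2 in differentiation medium (log2 ratio 2.33). Fosl2, which encodes Fra-2, had 241, 115, 133 and 113 CPM in the same order, highest in the Twist2 differentiation library as Fos was. Mafk, a small Maf protein, had 113, 40.1, 223 and 42.1 CPM and was higher after differentiation in both (1.47 with Twist2 and 2.38 with GFP).

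Of 23 other immediate early genes, 6 were higher and 7 lower in differentiation of the Twist2 cells (26.5% and 24.5% of listed genes). In that of the GFP cells 9 were higher and 10 lower (32.6% and 40.9% of listed genes). Twist2 over GFP in differentiation medium gave 7 higher and 3 lower (25.4% and 25.2% of listed genes). Scaled to the reads outside the table, 4 were higher and 7 lower (14.3% and 44.5% of listed genes). Cebpb, a transcription factor gene, had 33.1 CPM in the Twist2 differentiation library and 6.17 CPM in the GFP differentiation library (2.25), and Zfp36l2, whose protein promotes mRNA decay, had 84.9 and 17.1 CPM (2.25). Ptgs2, which encodes cyclooxygenase 2, was on the other side with 26.4 CPM in the Twist2 and 107 CPM in the GFP differentiation library (-1.98). Gem, a small GTPase gene, resembled Fos and Btg2 in the growth libraries, with 2.71 CPM with Twist2 and 10.1 CPM with GFP, and its difference of responses was 1.98. Of 7 genes of serum response and kinase regulation, Twist2 over GFP in differentiation medium gave 3 higher, among them Elk3 (1.79) and Creb3l1 (1.82), and 4 lower, among them Rps6ka3 (-1.94).

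The listed partners of Btg2 and Gadd45a came next. As a baseline, Twist2 over GFP in differentiation medium had 25.4% of all listed genes higher and 25.2% lower. Where reads of unlisted genes set the scale, 14.3% were higher and 44.5% lower. Of 5 genes of the BTG, TOB and CCR4-NOT list, 0 were higher and 2 lower in Twist2 over GFP in differentiation medium, Cnot6l (-1.76) and Cnot7 (-1.19), both deadenylase genes. Of 4 genes of the GADD45 list, Pcna (1.36) and Cdk1 (1.32) were higher in that comparison, but 0 were higher and 1 lower when scaled to the reads outside the table. Cdkn1a, which encodes p21, had 2286 CPM in the Twist2 differentiation library, 382 CPM in the Twist2 growth library, 3223 CPM in the GFP differentiation library and 787 CPM in the GFP growth library. Like Gadd45a it was lower with Twist2 in growth medium (-1.04), and its ratios of differentiation were larger than those of Gadd45a (2.58 with Twist2 and 2.03 with GFP). Of 15 p53 targets, which include Cdkn1a, Twist2 over GFP in differentiation medium gave 6 higher and 2 lower with a median of -0.03, and 3 higher and 6 lower when scaled to the reads outside the table. The largest ratios there were those of Gtse1 (3.42), Ckap2 (3.29) and Psrc1 (2.75), which encode proteins of dividing cells.

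Of the 9 listed genes of the unfolded protein response, 5 were at least 2-fold higher in differentiation of the Twist2 cells (median 1.02), where 26.5% of listed genes were higher. All 9 were at least 2-fold higher in that of the GFP cells (median 1.56), where 32.6% of listed genes were higher, and 0 were lower in either. Herpud1, an endoplasmic reticulum protein gene, had 131 CPM in the Twist2 differentiation library, 43.3 CPM in the Twist2 growth library, 247 CPM in the GFP differentiation library and 33.9 CPM in the GFP growth library, and Atf6, a sensor of unfolded protein, had 301, 66.1, 565 and 108 CPM. Of 7 other integrated stress response genes, 2 were higher and 1 lower in the Twist2 cells and 6 higher and 1 lower in the GFP cells. Slc7a5, an amino acid transporter gene, had 138 CPM in the Twist2 and 287 CPM in the GFP differentiation library (-1.05). Twist2 over GFP in differentiation medium gave 0 higher and 1 lower for the unfolded protein response. It gave 1 higher and 1 lower for the other integrated stress genes, where 25.4% of listed genes were higher and 25.2% lower. Scaled to the reads outside the table, the counts were 0 and 5 for the former and 0 and 2 for the latter. The shares of listed genes were then 14.3% and 44.5%.

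For Ddit4, the lists of hypoxia targets and of FOXO, glucocorticoid and mTORC1 regulators were read beside it. Of all listed genes, 25.4% were higher and 25.2% lower in Twist2 over GFP in differentiation medium. Scaled to the reads outside the table, these shares were 14.3% and 44.5%. In Twist2 over GFP in differentiation medium, 1 of 5 hypoxia targets was higher, Ndrg1 (2.27), and 1 was lower, Hk2 (-1.55). Of the 7 genes of the other list, 1 was higher, the paralogue Ddit4l (1.37), and 2 were lower, the ubiquitin ligase gene Trim63 (-1.68) and Deptor (-1.59), which encodes another mTOR inhibitor. Of 13 oxidative stress genes, 6 were higher and 1 lower, among them G6pdx (3.03), Mt1 (2.49), Srxn1 (2.26) and Ftl1 (2.20), with 4 and 2 when scaled to the reads outside the table. Ftl1 has near-identical copies in the genome, so its reads are uncertain. Of 7 heat shock genes, 1 was higher, Dnajb1 (1.62), and 3 were lower, Hspb7 (-2.06), Cryab (-1.96) and Hspb2 (-1.74). These small heat shock proteins are abundant in muscle.

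**Figure D5:**
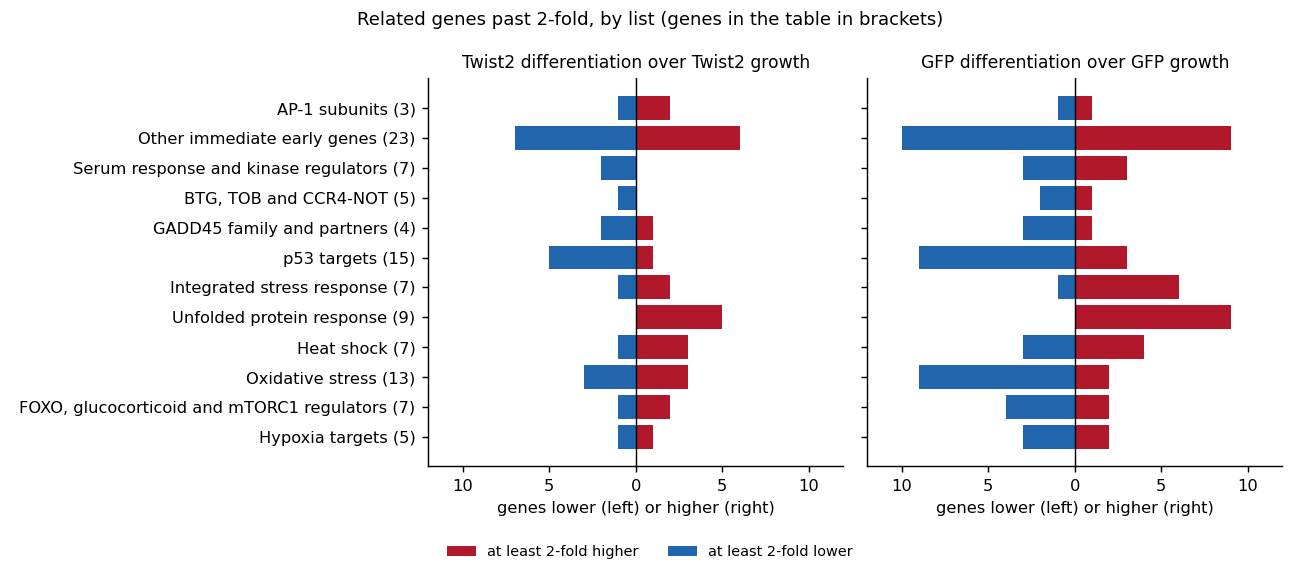
Number of listed genes at least 2-fold higher (right of 0) or lower (left of 0) in each of the 12 related lists. The 8 genes are left out, and the panels show differentiation of Twist2 cells and differentiation of GFP cells. The 9 listed unfolded protein response genes are all on the higher side in GFP differentiation, and most other lists have genes on both sides.

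Patterns over the 4 libraries were compared by the Euclidean distance of log2(CPM + 1), centred on the mean of each gene, among the 3602 listed genes whose mean reached 10 CPM. For Fos the nearest genes were Sqle (0.37), Slc24a3 (0.41) and Dpp6 (0.46), and for Ier2 they were Matn2 (0.44), Hexa (0.44) and Tgfbr2 (0.48). For Btg2 they were Chst3 (0.29), Dtx4 (0.33) and Adamts4 (0.34), and for Gadd45a they were Rbm20 (0.11), Prickle1 (0.17) and Arhgef2 (0.18). Ddit4 was followed by Rhoj (0.23), Mmp19 (0.34) and Fam110b (0.36), and Jun by Ctbp2 (0.06), Dfna5 (0.08) and Ttc21b (0.14). Egr1 lay closest to Dusp6 (0.08), which encodes a phosphatase of ERK, then to Endod1 (0.18) and Dpp7 (0.19), and Ddit3 to Pigc (0.06), Cxx1b (0.10) and 1810058I24Rik (0.12). With 4 libraries, such likeness describes 4 values of each gene. Dusp6, for example, had 80.5 CPM in the Twist2 differentiation library, 25.4 CPM in the Twist2 growth library, 37.6 CPM in the GFP differentiation library and 25.3 CPM in the GFP growth library. The 8 genes did not form 1 pattern. Egr1 and Ddit3 lay 0.53 apart and Btg2 and Egr1 0.64, whereas Gadd45a and Ddit4 lay 3.28 apart and Fos and Jun 3.39.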

How the data were processed

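Total RNA of 4 mouse myoblast cultures was sequenced from standard Illumina libraries, per the labels' protocols. TopHat2 2.0.0, DESeq2 1.6.3 and GRCm38 (mm10) are named per the submitters' processing notes, without their roles. The read counter, the annotation and the use of strand were not given in the sources used here. Values that the authors deposited are CPM for each library and, per the file headers, log2 ratios over the GFP growth library, which matched log2 of (CPM + 1) ratios within 1.3e-11. All CPM values were whole multiples of 1 read within 0.001 reads, which gave the reads and totals (12362290 in Twist2 differentiation, 11068073 in Twist2 growth, 9235281 in GFP differentiation and 9744075 in GFP growth).

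With 1 library per group the tests planned for replicated groups were not run and no count model was fitted. Intervals of levels are exact Poisson and those of ratios exact conditional binomial (Clopper-Pearson), both at 95%; those of differences between responses use the delta method. The calculation was tested on simulated data. Symbols of 3607 listed genes matched GENCODE M21, among them all 8 genes, and promoters and motif counts come from RefSeq (GRCm38.p6). Python 3.11.15, pandas 2.3.3, numpy 2.4.6, scipy 1.17.1 and matplotlib 3.10.9 were used.

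The members, meaning the 8 genes, and the lists were chosen with earlier results of these data known. Named genes are the members, the 3 listed genes nearest to each, and, of each list, all listed genes where there are 6 or fewer, otherwise the 3 with the largest ratio of Twist2 over GFP in differentiation medium and the 3 with the largest difference of responses; some of these are not printed. Alternatives were the pseudocount, the scaling, the minimum CPM, the fold threshold and centring by length.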

Additional observations from a re-analysis of the deposited data

Results flagged for a closer look

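Btg2 and Ddit4 were singled out because differentiation went in opposite directions in Twist2 and GFP cells, with a difference of the log2 ratios of 2.28 for Btg2 and 3.23 for Ddit4. Fos and Btg2 were singled out because Twist2 over GFP went in opposite directions in differentiation and growth medium, with a difference of 2.02 for Fos and 2.28 for Btg2. The ratio of Btg2 in GFP cells, -0.16, turned positive, between 0.06 and 0.63, with TMM, size factors, the reads outside the table and centring on the median or on length. With 1 library per group these differences were not tested against a spread between replicates.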

How the results depend on the processing

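Of the counts of the 8 genes higher or lower, 74 values stayed within 1.5 times the reported count over 9 alternatives and 16 did not. No ratio counted as higher or lower changed sign. In GFP differentiation, where 0 were higher, the count was 1 with a pseudocount of 0.1 CPM, 2 with TMM scaling and with centring on the length group, 3 with size factors, with centring on the median and at a 1.5-fold threshold, and 4 when scaled to reads outside the table. Of listed genes, 32.9% were higher with that pseudocount, 34.9% with TMM and 36.0% with length centring. The share was 36.4% with size factors, median centring and 1.5-fold alike, and 40.9% with the reads outside the table. For GFP differentiation the 2 lower genes became 1 with size factors, with centring on the median and with the reads outside the table. The shares of listed genes lower were then 26.6%, 25.2% and 17.7%. In Twist2 over GFP in differentiation medium the 6 higher genes became 2 with the reads outside the table, and 1 gene was lower with those reads, at the 1.5-fold threshold and with centring on length. With those reads 14.3% of listed genes were higher and 44.5% lower. At 1.5-fold 39.4% were lower, and with centring on length 22.6%. At 1.5-fold, 1 gene was lower in Twist2 differentiation and 3 in Twist2 over GFP in growth medium, where 40% and 20.9% of listed genes were lower. The medians of listed genes moved by 0.78 in GFP differentiation with the reads outside the table, by 0.34 with size factors and by 0.22 with TMM, and in growth medium by 0.23 and 0.11 with size factors and TMM. Which scaling fits these cells was not tested. No paired analysis was possible because each group has 1 library.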
